A study of Mus musculus with 18 samples.

Results

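Livers of control mice fed a mixture of fish and fungal oils were compared with livers of control mice fed lard. The comparison takes 6 of the 18 arrays of the series, chosen by their titles: 3 pools from fish/fungal-fed controls and 3 pools from lard-fed controls. Each pool held equal amounts of RNA from 3 livers, so 9 mice stand behind each group, and siblings of a genotype had been randomized between the diets. All mice of both groups were males of the genotype Alb-Cre-/-/POR-lox+/+. They carried floxed alleles of the P450 reductase gene Por but no Cre, so that the reductase was left in place by design. They were weaned at 4 weeks onto synthetic AIN-93G diets with 0.025% cholesterol and 0.008% sodium cholate, ate them for 8 weeks, and were fasted for 4 h before sampling at 12 weeks of age. The fish/fungal diet held 3.27% ARASCO, a fungal oil rich in arachidonic acid, and 2.73% menhaden oil, a fish oil. In the lard diet the fat was lard. The sample labels put the fat of the diets at 7% and the series text at 6%. Set beside this comparison were canola-fed controls of the same genotype and fish/fungal-fed and lard-fed knockouts of the genotype Alb-Cre+/-/POR-lox+/+, in which the albumin promoter drives Cre in hepatocytes (3 pools each). The deleted gene is not analysed here, and no check of genotype on it was made.

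Dietary long-chain polyunsaturated fatty acids are classical regulators of the liver's lipid genes. In textbook accounts they limit the maturation of SREBP-1c, the transcription factor that drives fatty acid synthesis and desaturation, and they are ligands of PPARalpha, the receptor that drives fatty acid oxidation. A related factor, SREBP-2, drives cholesterol synthesis. Both SREBPs act with the CCAAT-binding factor NF-Y at many of their promoters. Arachidonic acid and the long n-3 acids of fish oil are also the end products of hepatic desaturation and elongation, which the livers of animals fed lard or canola oil must run themselves.

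Transcripts were measured on Affymetrix mouse genome arrays, and all values are on the log2 scale of RMA, on which 1 unit is a doubling. Of 12578 genes tested, 90 differed at an adjusted p under 0.05 (0.716%). In the fish/fungal-fed livers 78 genes were lower (0.62%) and 12 higher (0.0954%) than in the lard-fed livers. A change of at least 2-fold was seen in 40 of the lower and 3 of the higher genes. The 3 fish/fungal arrays did not overlap the 3 lard arrays for any of the 90 genes. Of all genes tested, 7.39% lay below the lard arrays without overlap and 6.2% above them. The median change of all genes was 0.001. Of 225 tested genes in 14 lists of lipid, sterol and bile acid metabolism, 32 were lower and 0 higher. The lower ones fell in 8 of these lists, and the other 6, peroxisomal and mitochondrial oxidation, other PPARalpha targets, lipid uptake and droplets, eicosanoid metabolism and bile acid synthesis, held no called gene. The count of calls depended on single pools: it was 41 without lard replicate 2, 52 without fish/fungal replicate 2 and 51 without fish/fungal replicate 3, and 64, 64 and 67 without the other 3. In all 6 of these leave-outs 35 of the 90 genes passed, 34 lower and 1 higher. In pooled whole liver, fewer cells of a type and less RNA per cell cannot be told apart.

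**Figure D1:**
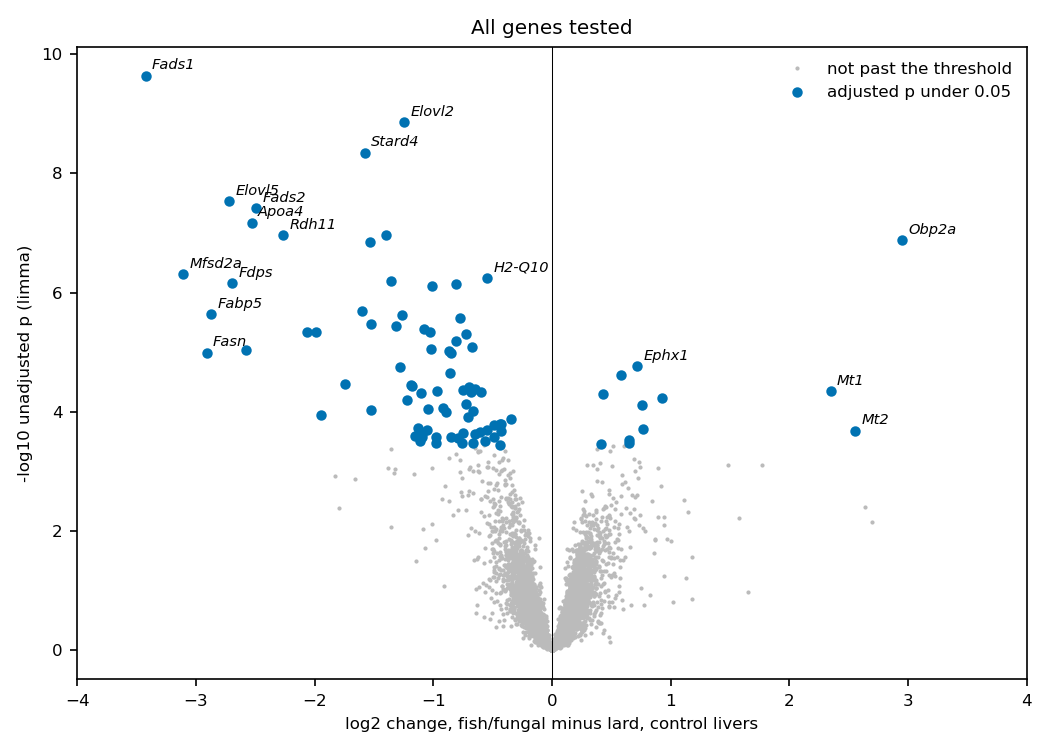
Change of each of the 12578 genes tested (horizontal axis, log2 of fish/fungal minus lard in control livers) against its unadjusted p (vertical axis, -log10, limma). Large blue points are the 90 genes with an adjusted p under 0.05, and 78 of them lie on the left, lower with fish/fungal oil.

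Several of the enzymes that make long polyunsaturated fatty acids from dietary precursors were lower. Fads1, the delta-5 desaturase, had 8.53, 8.44 and 8.75 in the fish/fungal pools, against 11.99, 12.22 and 11.79 in the lard pools. Its 3 fish/fungal values lay more than 3 units below the lowest lard value, and the fall was the largest among the called genes: a log2 change of -3.42 ± 0.26 (SE), or 10.7-fold lower (adjusted p = 2.9e-06). Fads2, the neighbouring gene for the delta-6 desaturase, had 8.89, 9.52 and 9.00 in the fish/fungal pools against 11.97, 11.52 and 11.40 in the lard pools (-2.49 ± 0.27, 5.63-fold lower, adjusted p = 9.7e-05). Elovl5, which elongates the products of both desaturases, had 10.27, 10.05 and 10.90 in the fish/fungal pools against 13.26, 13.25 and 12.88 in the lard pools (-2.72 ± 0.29, adjusted p = 9.3e-05). Elovl2, the elongase of the longest steps towards docosahexaenoic acid, was far above most genes in both groups, at 11.28, 11.51 and 11.17 in the fish/fungal pools against 12.49, 12.65 and 12.54 in the lard pools. It had the second smallest p of all genes, for a change of -1.24 ± 0.11 (adjusted p = 8.7e-06). The SE and p come from a spread pooled by the fit over all 18 arrays, not from these 6 alone. Tecr, the reductase of the last step of each elongation round, was lower by 0.61 on the log2 scale in 3 non-overlapping pools (-0.61 ± 0.13, adjusted p = 0.038), a call kept in 1 of the 6 leave-outs (adjusted p up to 0.18, without lard replicate 2). The mean over the probe sets of Tecr did not pass (-0.56, adjusted p = 0.058).

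These 5 were the called members among 13 tested genes of desaturation and elongation (38.5%), all lower, with a list median of -0.42. When a pool was left out, 4 or 5 genes of the list were lower. The other 8 had changes from -0.53 for Elovl3, the elongase of very long saturated chains, to 0.33 for Hacd1, a dehydratase of the elongation cycle, and none passed. Fads3, the relative of both desaturases whose role in liver is less clear, had 5.67, 5.64 and 5.72 in the fish/fungal pools and 5.76, 5.66 and 5.77 in the lard pools, with overlapping values (-0.06 ± 0.09, adjusted p = 0.93). A dimmer probe set of Fads1 gave -1.31, and the mean of both gave -2.37 (adjusted p = 1.7e-06). The genes named here beyond those of the naming rule, Elovl3, Hacd1 and Fads3 among them, were chosen after their values were seen.

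**Figure D2:**
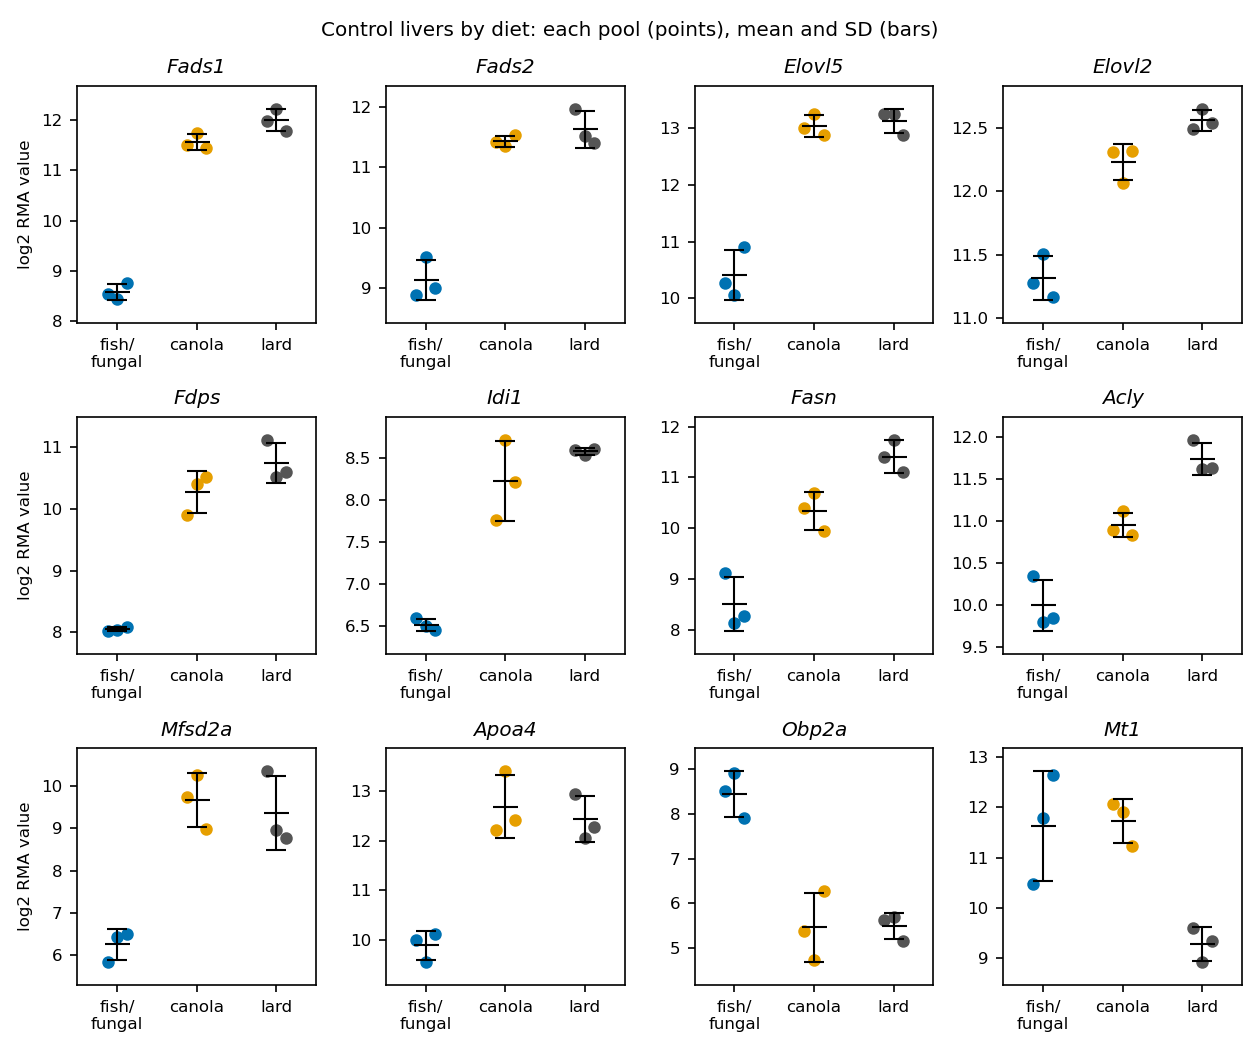
Values of 12 genes in the control livers (log2 RMA, a scale of its own for each gene): each point is a pool of 3 mice, bars are mean and SD of 3 pools, and diets run fish/fungal, canola, lard. For the 10 genes up to Apoa4 all fish/fungal points lie below all lard points, and for Obp2a and Mt1 above them. Canola lies with lard for Fads1, Elovl5, Mfsd2a, Apoa4 and Obp2a, between for Fasn and Acly, and with fish/fungal for Mt1.

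Transcripts of cholesterol synthesis enzymes were lower at most of the steps tested. Of 18 tested enzymes 11 were lower and 0 higher (61.1%), the list median was -1.0, and 17 of the 18 changes were negative. The number of lower enzymes was 6 to 8 when a pool was left out, 6 of them without fish/fungal replicate 1, lard replicate 1 or lard replicate 2, with medians of -0.99 to -1.03. Fdps, the synthase of farnesyl diphosphate, had 8.03, 8.04 and 8.09 in the fish/fungal pools, against 11.12, 10.52 and 10.60 in the lard pools (-2.69 ± 0.35, 6.47-fold lower, adjusted p = 6.0e-04). Idi1, the isomerase of the step before it, had 6.60, 6.50 and 6.45 in the fish/fungal pools against 8.60, 8.54 and 8.61 in the lard pools (-2.07 ± 0.32, 4.19-fold lower, adjusted p = 0.0023). For both genes the pools of a diet lay within 1 unit of each other and the diets' nearest pools were close to 2 or more units apart. Sqle, the epoxidase that commits squalene to the sterols, had 5.12, 4.79 and 4.84 in the fish/fungal pools against 6.99, 6.95 and 6.65 in the lard pools (-1.95 ± 0.39, adjusted p = 0.024). The fish/fungal mean of Sqle lay below the array medians, so the size of the fall can be a lower bound.

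Further along the path, Cyp51, the lanosterol demethylase and itself a P450 that draws electrons from the reductase, had 6.44, 6.32 and 6.72 in the fish/fungal pools against 7.92, 8.35 and 8.03 in the lard pools (-1.60 ± 0.23, adjusted p = 0.0015). Msmo1, the methylsterol oxidase, had 8.26, 8.59 and 8.33 in the fish/fungal pools against 9.63, 9.60 and 10 in the lard pools (-1.35 ± 0.18, adjusted p = 6.0e-04). Both genes had more than 1 unit between the diets' nearest pools. Dhcr7, the reductase that yields cholesterol, had 7.84, 7.64 and 7.83 in the fish/fungal pools against 9.23, 9.00 and 8.93 in the lard pools (-1.28 ± 0.22, adjusted p = 0.0062). The remaining lower enzymes were Pmvk, the phosphomevalonate kinase (-1.22 ± 0.23), Nsdhl, a sterol dehydrogenase (-1.16 ± 0.25), Sc5d, the lathosterol desaturase (-1.01 ± 0.14), Lss, the lanosterol synthase (-0.98 ± 0.22), and Tm7sf2, a sterol reductase (-0.75 ± 0.16), with adjusted p from 0.00061 for Sc5d to 0.048 for Lss. Fdps, Idi1, Cyp51, Msmo1, Dhcr7 and Sc5d passed in all 6 leave-outs. Sqle, Lss and Tm7sf2 lost their calls without any of the 6 pools (adjusted p up to 0.11 and 0.25 for Sqle and Lss, and up to 0.17 for Tm7sf2), Nsdhl passed in 1 leave-out (up to 0.17, without lard replicate 2) and Pmvk in 3 (up to 0.095, without fish/fungal replicate 1).

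The 7 tested enzymes that did not pass were Hmgcs1 (-0.93 ± 0.27, adjusted p = 0.18), Fdft1 (-0.49 ± 0.14, 0.15), Hsd17b7 (-0.48 ± 0.16, 0.29), Mvd (-0.38 ± 0.16, 0.52), Ebp (-0.28 ± 0.12, 0.52), Mvk (-0.24 ± 0.10, 0.51) and Ggps1 (0.27 ± 0.13, 0.61). Ggps1, the sole positive value, makes geranylgeranyl diphosphate on a branch that leaves the sterol path. Second, dimmer probe sets of Fdps and Msmo1 gave 0.07 and 0.08. The mean over each gene's probe sets was -1.31 for Fdps (adjusted p = 0.0027) and -0.64 for Msmo1 (adjusted p = 0.0055).

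**Figure D3:**
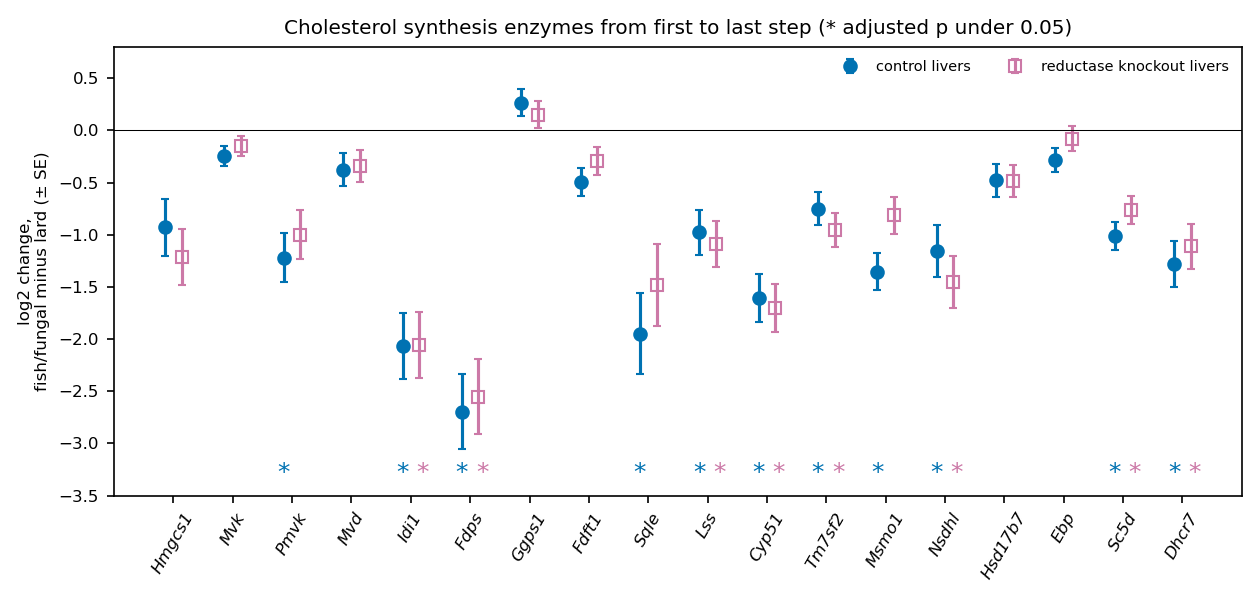
Log2 change of fish/fungal minus lard (± SE from the fit, 3 pools a group) for the 18 tested enzymes of cholesterol synthesis, in the usual order of their steps. Filled circles are control livers, open squares reductase knockout livers, and stars mark an adjusted p under 0.05. In control livers 11 enzymes carry a star, the lowest value is Fdps at -2.69, and Ggps1 is the single value above 0.

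The promoters of 4 of these lower enzymes are shown because the tested cholesterol enzymes share a box there. They are the 250 bases before the RefSeq transcription start in build GRCm38.p6, 5′ to 3′ on the gene's strand. Capitals mark the NF-Y box CCAAT or, where it lies on the opposite strand, ATTGG. The windows are chr13:8885356-8885605 (plus strand) for Idi1, chr5:4104698-4104947 (minus strand) for Cyp51, chr8:64733579-64733828 (minus strand) for Msmo1 and chrX:72918271-72918520 (plus strand) for Nsdhl. The plan was to show promoters with the sterol element given below. No called gene of fatty acid synthesis, desaturation or cholesterol synthesis with a promoter entry held it. The box and the 4 genes were then chosen after the matches were seen, and genes with more than 1 RefSeq start were passed over.
Idi1: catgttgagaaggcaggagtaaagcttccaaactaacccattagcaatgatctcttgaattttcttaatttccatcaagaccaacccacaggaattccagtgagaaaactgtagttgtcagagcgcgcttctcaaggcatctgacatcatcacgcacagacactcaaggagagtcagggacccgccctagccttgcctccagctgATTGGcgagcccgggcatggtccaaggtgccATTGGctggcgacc
Cyp51: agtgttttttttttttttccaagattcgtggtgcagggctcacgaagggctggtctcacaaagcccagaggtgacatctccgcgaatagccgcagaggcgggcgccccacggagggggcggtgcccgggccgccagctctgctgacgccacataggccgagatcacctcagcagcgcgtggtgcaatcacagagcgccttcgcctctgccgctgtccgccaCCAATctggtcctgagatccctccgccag
Msmo1: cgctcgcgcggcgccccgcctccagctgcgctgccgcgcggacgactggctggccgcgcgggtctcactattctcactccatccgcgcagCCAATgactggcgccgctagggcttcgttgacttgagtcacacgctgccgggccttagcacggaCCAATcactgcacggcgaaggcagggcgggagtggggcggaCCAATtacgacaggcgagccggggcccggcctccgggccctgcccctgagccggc
Nsdhl: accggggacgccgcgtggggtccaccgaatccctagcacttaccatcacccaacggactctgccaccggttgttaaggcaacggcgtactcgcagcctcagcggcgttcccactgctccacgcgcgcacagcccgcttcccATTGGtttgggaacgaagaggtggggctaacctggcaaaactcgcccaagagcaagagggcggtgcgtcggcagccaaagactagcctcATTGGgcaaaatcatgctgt
Idi1 has boxes 45 and 14 bases before the start, Cyp51 has 1 at 29, Msmo1 has 3 at 160, 96 and 55, and Nsdhl has 2 at 109 and 20. Of the 15 tested cholesterol enzymes with a promoter entry, all 15 held CCAAT on either strand, as did all 9 of the lower ones with an entry. The box was found for 39.9% of the 10125 tested genes with an entry, and for 34 of the 61 lower genes with one (55.7%). A stricter sterol element, TCACNCCAC on either strand, was found for 1.28% of the tested genes, 2 of the 61 lower genes (3.28%) and 1 of the 15 cholesterol enzymes (6.67%), which was not among the lower ones. The E-box CACGTG was found for 9 of the 61 lower genes (14.8%) and 9.82% of the tested genes. The PPAR-type direct repeat of spacing 1 was found for 0 of the 61 and for 0.0494% of the tested genes. Genes with several starts had more windows in which a match could occur, and none of the motifs searched contains another.

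Few of the genes that sense or carry sterols passed. Insig1, which holds SREBPs in the endoplasmic reticulum and is itself an SREBP target, had 8.38, 7.76 and 8.29 in the fish/fungal pools against 9.45, 9.64 and 9.92 in the lard pools (-1.53 ± 0.23, adjusted p = 0.002). Stard4, a cytosolic sterol carrier, had 8.98, 8.49 and 8.48 in the fish/fungal pools against 10.18, 10.29 and 10.22 in the lard pools (-1.58 ± 0.15, 2.99-fold lower, adjusted p = 1.9e-05). Both passed in every leave-out, and they were the 2 lower genes of 12 tested in sterol sensing, uptake and transfer (16.7%, list median -0.14). Srebf2, the gene for SREBP-2, was at -0.26 ± 0.10 (adjusted p = 0.48). The sterol exporters Abca1, Abcg5 and Abcg8 were at 0.01, -0.09 and -0.06, each with overlapping pools. Tmem97, a sterol-regulated membrane protein outside the lists, was lower, at 8.65, 8.77 and 8.70 in the fish/fungal pools against 9.67, 9.34 and 9.28 in the lard pools (-0.72 ± 0.11, adjusted p = 0.0023).

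Fatty acid synthesis showed the lowest list median, -1.33 over 15 tested genes. All 15 changes were negative, and for 14 of them the pools did not overlap, but 5 passed the test (33.3%). Fasn, the fatty acid synthase, had 9.11, 8.14 and 8.27 in the fish/fungal pools against 11.40, 11.74 and 11.10 in the lard pools (-2.91 ± 0.47, 7.51-fold lower, adjusted p = 0.0039). Acacb, the acetyl-CoA carboxylase at the mitochondrial surface, had 6.60, 5.79 and 6.34 in the fish/fungal pools against 9.13, 8.76 and 8.58 in the lard pools (-2.58 ± 0.42, adjusted p = 0.0038). The pools of a diet differed by up to 1 unit in these genes, a wider spread than for the desaturases. Acly, the citrate lyase that supplies cytosolic acetyl-CoA, had 10.35, 9.80 and 9.85 in the fish/fungal pools against 11.97, 11.63 and 11.64 in the lard pools (-1.74 ± 0.31, adjusted p = 0.011). Aacs, the acetoacetyl-CoA synthetase, was lower by the fit at -1.09 ± 0.24 (adjusted p = 0.042). Scd1, the stearoyl-CoA desaturase, had 13.68, 13.54 and 12.94 in the fish/fungal pools against 14.36, 14.40 and 14.16 in the lard pools (-0.92 ± 0.18, adjusted p = 0.019), near the top of the array's range. A second probe set of Scd1 gave -2.59, while a second one of Acacb gave 0.07 and those of Acly ran from -2.08 to 0.78.

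The other members missed the threshold, Scd2 at -0.03 among them. Elovl6, the elongase of palmitate, had 9.81, 8.72 and 8.19 in the fish/fungal pools against 11.41, 10.68 and 10.11 in the lard pools (-1.83 ± 0.47, adjusted p = 0.10). In Elovl6 and in Me1, the malic enzyme (-1.80 ± 0.54, adjusted p = 0.22), replicate 1 was the highest pool of each diet, and the lard pools were more than 1 unit apart. Thrsp, a lipogenic protein responsive to thyroid hormone, was at -1.66 ± 0.43 (adjusted p = 0.11), Acss2 at -1.35 ± 0.31 (0.056) and Acaca, the cytosolic acetyl-CoA carboxylase, at -1.33 ± 0.34 (0.093). The number of lower genes in the list was 7 without fish/fungal replicate 1, 3 without fish/fungal replicate 2 or lard replicate 2, 2 without fish/fungal replicate 3 or lard replicate 1, and 5 without lard replicate 3. Fasn and Acacb passed in all 6, Acly and Scd1 in 3 (adjusted p up to 0.062 without fish/fungal replicate 2 and 0.10 without lard replicate 2) and Aacs in 2 (up to 0.25, without fish/fungal replicate 3).

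Of the regulators, Srebf1, the gene for SREBP-1, had 11.35, 11.21 and 10.57 in the fish/fungal pools against 12.02, 12.28 and 12.14 in the lard pools (-1.10 ± 0.20, 2.15-fold lower, adjusted p = 0.012). It passed in 4 leave-outs (adjusted p up to 0.083, without lard replicate 2) and was the 1 called gene of 14 tested regulators and triglyceride synthesis genes (7.14%, median -0.14). Mlxipl, the gene for the glucose-responsive factor ChREBP, was at -0.28 ± 0.27, and Nr1h3, the gene for LXRalpha, at -0.12 ± 0.09, both with overlapping pools. Gpam, the acyltransferase of the first step of glycerolipid synthesis, was at -0.81 ± 0.19 with non-overlapping pools (adjusted p = 0.064), and the diacylglycerol acyltransferases Dgat1 and Dgat2 were at 0.02 and -0.14.

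**Figure D4:**
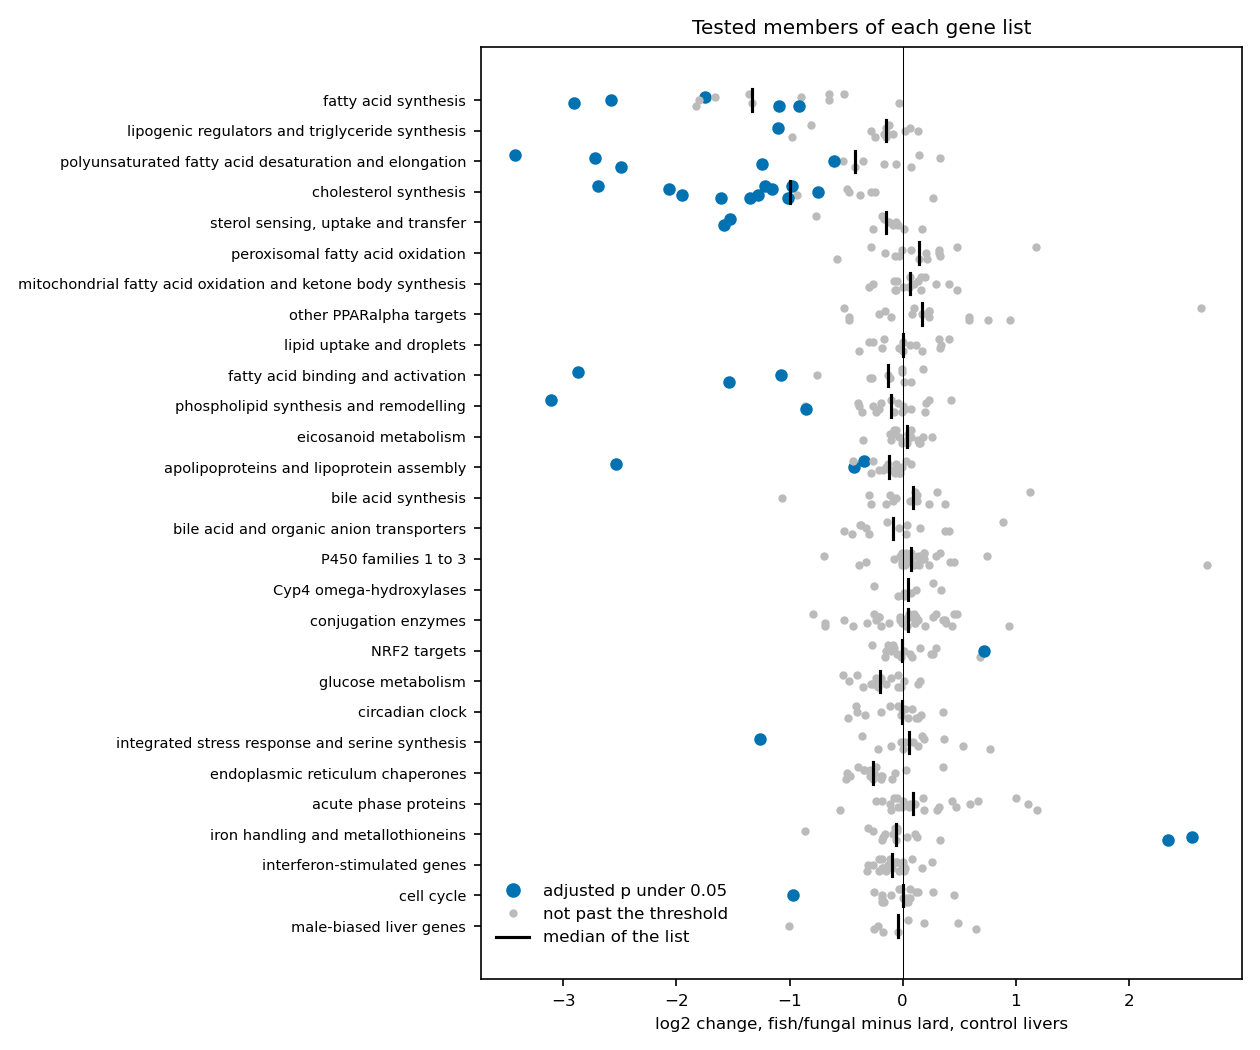
Log2 change of fish/fungal minus lard in control livers for the tested members of 28 lists of liver genes. Each point is a gene, large blue points passed the threshold, and the black tick is the list median. Blue points on the left gather in the lists of fatty acid synthesis, desaturation, cholesterol synthesis and fatty acid binding, while the lists of fatty acid oxidation, P450s and bile acids hold none.

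A few carriers and activating enzymes of fatty acids and phospholipids were lower, namely Mfsd2a, Fabp5, Fabp2 and Acsl3. Mfsd2a, the transporter of lysophosphatidylcholine that carries docosahexaenoic acid into brain and eye, had 5.83, 6.43 and 6.50 in the fish/fungal pools against 10.36, 8.97 and 8.77 in the lard pools (-3.11 ± 0.40, 8.62-fold lower, adjusted p = 5.6e-04). This was the second largest fall. Fabp5, a cytosolic fatty acid binding protein, had 10.15, 9.18 and 9.21 in the fish/fungal pools against 12.79, 12.25 and 12.11 in the lard pools (-2.87 ± 0.41, 7.32-fold lower, adjusted p = 0.0016), and Fabp2, the intestinal-type binding protein, was lower by 1.08 on the log2 scale (-1.08 ± 0.16, adjusted p = 0.0022). Acsl3, an acyl-CoA synthetase of the endoplasmic reticulum and lipid droplets, had 6.47, 6.33 and 5.91 in the fish/fungal pools against 7.56, 7.97 and 7.77 in the lard pools (-1.53 ± 0.18, adjusted p = 1.8e-04). Fabp5, Fabp2 and Acsl3 were the 3 lower genes of 13 tested in fatty acid binding and activation (23.1%, median -0.13), and each passed in all leave-outs. Acsl5, a relative of Acsl3, was at -0.76 ± 0.20 (adjusted p = 0.11) and Acsl4, which prefers arachidonic acid, at -0.29 ± 0.19 (adjusted p = 0.78). In phospholipid synthesis 2 of 21 genes were lower (9.52%, median -0.10), Mfsd2a and Pcyt2, the enzyme of the regulated step of phosphatidylethanolamine synthesis (-0.86 ± 0.15, adjusted p = 0.0076). Mfsd2a passed in all 6 leave-outs and Pcyt2 in 4 (adjusted p up to 0.065, without lard replicate 2).

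Among the lipoprotein genes the largest change was in Apoa4, an apolipoprotein of chylomicrons and newly made VLDL. It had 10.01, 9.56 and 10.12 in the fish/fungal pools against 12.94, 12.06 and 12.28 in the lard pools (-2.53 ± 0.28, 5.79-fold lower, adjusted p = 1.4e-04), and a second probe set gave -3.08. Its neighbours in the same cluster moved far less. Apoa5, an activator of lipoprotein lipase, was lower by 0.35 on the log2 scale, with 12.90, 13.06 and 13.17 in the fish/fungal pools against 13.40, 13.45 and 13.32 in the lard pools (-0.35 ± 0.07, adjusted p = 0.027), while Apoc3 was at -0.06 ± 0.07 and Apoa1 at -0.11 ± 0.04 (adjusted p = 0.90 and 0.40). Apoc2, the cofactor of lipoprotein lipase, had 12.00, 12.03 and 12.06 in the fish/fungal pools against 12.53, 12.43 and 12.42 in the lard pools (-0.43 ± 0.09, adjusted p = 0.032). These were 3 of 20 tested genes (15%, median -0.12). Apoa4 passed in every leave-out, Apoa5 in 2 (adjusted p up to 0.16, without lard replicate 2) and Apoc2 in none (up to 0.11, without fish/fungal replicate 1).

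Other lower genes lay outside the lipid and sterol lists. Rdh11, a retinal reductase of the endoplasmic reticulum, had 5.61, 5.66 and 5.92 in the fish/fungal pools against 8.19, 7.87 and 7.93 in the lard pools (-2.27 ± 0.26, 4.81-fold lower, adjusted p = 1.7e-04). Camk1d, a calcium/calmodulin-dependent kinase, had 6.46, 6.52 and 6.57 in the fish/fungal pools against 8.29, 8.82 and 8.41 in the lard pools (-1.99 ± 0.30, adjusted p = 0.0023), and its other probe sets ran from -1.86 to 0.06. Both were separated by well over 1 unit. Paqr9, a membrane protein of the progestin and adipoQ receptor family, had 9.40, 9.39 and 9.40 in the fish/fungal pools against 10.83, 10.68 and 10.88 in the lard pools (-1.40 ± 0.16, adjusted p = 1.7e-04). H2-Q10, a secreted class I molecule made by liver, changed little in size but with a small spread, at 12.98, 12.89 and 12.81 in the fish/fungal pools against 13.44, 13.49 and 13.40 in the lard pools (-0.55 ± 0.07, adjusted p = 6.0e-04). Atf5, a transcription factor of the stress responses, was lower (-1.26 ± 0.18, adjusted p = 0.0016), as the 1 called gene of 14 in the integrated stress response and serine synthesis (7.14%, median 0.06). Ccnd1, the gene for cyclin D1, was lower (-0.97 ± 0.18, adjusted p = 0.012; in 3 of 6 leave-outs, up to 0.088 without lard replicate 2), as the 1 called gene of 19 in the cell cycle list (5.26%, median 0.00). Esr1, the gene for oestrogen receptor alpha, had 7.96, 8.14 and 8.19 in the fish/fungal pools against 8.91, 9.16 and 8.82 in the lard pools (-0.87 ± 0.14, adjusted p = 0.0038), with other probe sets from -0.58 to 0.00 and a mean over all of -0.48 (adjusted p = 0.014). Vegfb (-0.81 ± 0.11), Pstpip2 (-1.31 ± 0.20), Cxadr (-1.03 ± 0.16), Echdc1 (-0.85 ± 0.14) and Pter (-0.78 ± 0.11) also passed in all 6 leave-outs. The other 4 probe sets of Cxadr, however, ran from -0.88 to 0.12, and the mean over all of them did not pass (-0.55, adjusted p = 0.056).

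Of the 12 higher genes, 3 exceeded 2-fold. Obp2a, a lipocalin, had 8.52, 8.92 and 7.90 in the fish/fungal pools against 5.63, 5.70 and 5.16 in the lard pools (2.95 ± 0.34, 7.72-fold higher, adjusted p = 1.8e-04). It was the 1 higher gene that passed in every leave-out. The neighbouring metallothionein genes, which encode small metal-binding proteins, were higher with a wide spread. Mt1 had 10.47, 11.79 and 12.64 in the fish/fungal pools against 9.59, 8.92 and 9.34 in the lard pools (2.35 ± 0.43, 5.10-fold higher, adjusted p = 0.012), and Mt2 had 8.45, 10.39 and 11.26 in the fish/fungal pools against 7.41, 7.58 and 7.44 in the lard pools (2.55 ± 0.55, 5.87-fold higher, adjusted p = 0.037). In both, fish/fungal replicate 1 lay less than 1 unit above the highest lard pool and replicate 3 more than 3 units above it. Mt1 passed in 3 leave-outs (adjusted p up to 0.083, without lard replicate 2) and Mt2 in 1 (up to 0.23, without fish/fungal replicate 3), and a second probe set of Mt1 gave 0.42. They were the 2 called genes of 17 in iron handling and metallothioneins (11.8%, median -0.06).

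The other higher genes changed by less than 1 unit. Ephx1, the microsomal epoxide hydrolase, had 12.33, 12.36 and 12.33 in the fish/fungal pools against 11.72, 11.52 and 11.62 in the lard pools (0.72 ± 0.12, adjusted p = 0.0061; 0.051 without lard replicate 2). It was the 1 called gene of 18 NRF2 targets (5.56%, median -0.01). Akr1c19, an aldo-keto reductase, had 10.54, 10.84 and 10.59 in the fish/fungal pools against 10.02, 9.81 and 9.86 in the lard pools (0.76 ± 0.15, adjusted p = 0.018), and Wfdc12, a secreted protease inhibitor, had 7.21, 6.33 and 7.28 in the fish/fungal pools against 5.94, 5.95 and 6.16 in the lard pools (0.93 ± 0.17, adjusted p = 0.014). Both passed in 2 of the 6 leave-outs (adjusted p up to 0.10). Rpp40, a subunit of ribonuclease P, was at 0.58 ± 0.10 (adjusted p = 0.0079, and 0.06 without lard replicate 2). Akip1 (0.43 ± 0.08), 4930523C07Rik (0.41 ± 0.09), Wnk4 (0.65 ± 0.14), Zfp991 (0.65 ± 0.14) and Znf41-ps (0.77 ± 0.16) passed in at most 3 leave-outs.

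No gene of fatty acid oxidation passed. The 15 peroxisomal genes had a median of 0.15 and the 18 mitochondrial and ketone body genes one of 0.06, with 2 and 1 higher and 0 and 1 lower at an unadjusted p under 0.05. Of all 12578 genes tested, 1003 (7.97%) had an unadjusted p under 0.05 by limma, 436 higher and 567 lower. Eci2 and Crot, a peroxisomal isomerase and the carnitine octanoyltransferase, were at 0.33 ± 0.14 and 0.32 ± 0.14 (adjusted p = 0.55 and 0.53). They had the smallest p of the peroxisomal list, whose changes ran from -0.58 to 1.18. Acadm, the medium-chain dehydrogenase, was at 0.30 ± 0.12 and Bdh1, the ketone body dehydrogenase, at -0.30 ± 0.11 (adjusted p = 0.53 and 0.45). Among 17 other PPARalpha targets, with a median of 0.17, Cyp4a14, an omega-hydroxylase, was by far the most changed: 9.94, 12.06 and 12.47 in the fish/fungal pools against 9.53, 7.42 and 9.62 in the lard pools (2.63 ± 0.79, adjusted p = 0.22). Its lowest fish/fungal pool lay just above its highest lard pool, and each diet held pools more than 2 units apart.

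The lists of drug and bile acid metabolism also held no call. For the 31 P450s of families 1 to 3 the median was 0.07, with 7 higher and 2 lower at an unadjusted p under 0.05. Over all genes tested that share was 7.97% in either direction. Cyp2c37 and Cyp2c68, both of the arachidonate-metabolizing Cyp2c family, were at 0.74 ± 0.18 and -0.70 ± 0.17 (adjusted p = 0.086 and 0.088). Cyp2b9 had the largest positive value of the list, chosen after it was seen, at 8.76, 7.13 and 6.70 in the fish/fungal pools against 5.34, 4.53 and 4.63 in the lard pools (2.69 ± 0.88, adjusted p = 0.29), the lard mean lying below the array medians. Abcg2, an exporter of the canalicular membrane, was at 0.38 ± 0.09 and Slc10a1, the bile salt uptake transporter, at -0.37 ± 0.09 (adjusted p = 0.056 and 0.074), both with non-overlapping pools. In eicosanoid metabolism, the fate of released arachidonic acid, 18 genes had a median of 0.03 and the closest were Ltc4s at 0.26 ± 0.11 and Ptgds at -0.35 ± 0.19 (adjusted p = 0.53 and 0.70). The 18 glucose genes had a median of -0.20, led by Ldha, the lactate dehydrogenase A chain (-0.41 ± 0.10, adjusted p = 0.088), and the 19 chaperones of the endoplasmic reticulum one of -0.26, 17 of them negative, led by Pdia4 (-0.34 ± 0.10, adjusted p = 0.19). Among 24 acute phase genes with a median of 0.09, Socs3, the feedback inhibitor of cytokine signalling, was at 1.11 ± 0.32 (adjusted p = 0.19). Of 36 conjugation enzymes 9 were higher and 6 lower at an unadjusted p under 0.05, against 7.97% of all genes tested in either direction. Their median was 0.04, and the list was led by Gsto1, a glutathione transferase (0.38 ± 0.10), and Sult1c2, a sulphotransferase (-0.69 ± 0.17, adjusted p = 0.088 and 0.086). The lists of bile acid synthesis, bile acid transporters, lipid droplets, Cyp4 hydroxylases, the clock, interferon-stimulated genes and male-biased and female-biased genes had no call either by limma, with medians of 0.09, -0.08, 0.01, 0.05, -0.01, -0.09, -0.04 and -0.24. The 16 genes of bile acid synthesis ran from -1.07 to 1.13, and the 14 transporters from -0.52 to 0.89. In each of these 2 lists, 2 genes were higher and 3 lower at an unadjusted p under 0.05.

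No list of cell type markers held a call. Hepatocyte markers summed to 133000 to 138000 on the linear scale in the fish/fungal pools and 135000 to 140000 in the lard pools, with Alb, Ttr and the other tested defining markers above the array medians, as the tissue label says. The sum of 16 macrophage markers was 14100 to 15200 in the fish/fungal pools against 10700 to 14400 in the lard pools. Of these markers 14 had positive changes, with a median of 0.23 and a highest value of 0.66 for Lyz2 (adjusted p = 0.25). Whether macrophage content has a part in any gene's change was not tested. The medians of the other 12 marker lists ran from -0.15 to 0.08. Some rested on few tested markers: 1 for erythroid cells (the -0.15), 1 for adipocytes, 3 for cholangiocytes, 3 for pancreatic acinar cells and 4 for neutrophils. The 3′ minus 5′ signal of Actb, a measure of RNA integrity, was 0.71 to 1.04 in the fish/fungal arrays and 0.67 to 0.90 in the lard arrays, and each array correlated with its own group at 0.9935 to 0.9956 on average.

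Canola-fed controls stood nearer to lard for most of the changed genes. Of the 90 genes the canola mean lay between the other means for 78 and nearer to lard for 75. The 90 genes were chosen for a gap between the fish/fungal and lard means, which favours a canola mean between them. The share over all genes tested was not counted. Between canola and lard no gene passed (smallest adjusted p = 0.35), with 579 genes at an unadjusted p under 0.05 (4.6%). Fish/fungal minus canola gave 33 calls (0.262%), 29 of them among the 90, and 26 of these lower. That count was 21 without canola replicate 2 and 19 without canola replicate 3. The comparisons share arrays, so their values are given side by side. For Fads1 the change against canola was -2.99 and canola minus lard -0.43, and for Elovl5 they were -2.64 and -0.09. For Apoa4 and Mfsd2a canola minus lard was 0.25 and 0.30, without a call. In the cholesterol list the median was -0.69 against canola, with 3 lower calls, and -0.30 for canola minus lard. Fatty acid synthesis had medians of -0.92 and -0.36, and 0 of its genes passed against canola. Mt1 and Mt2 stood with the fish/fungal diet instead: canola minus lard was 2.45 and 2.61 (adjusted p = 0.35 and 0.77), with Mt1 at 12.07, 11.90 and 11.24 in the canola pools.

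The same oils were compared in the reductase knockouts, on arrays shared with none of the controls. There 58 genes passed (0.461%), 53 lower (0.421%) and 5 higher (0.0398%), with 1076 at an unadjusted p under 0.05 (8.55%). That count was 12 and 34 without knockout lard replicate 1 and 3, and 32, 116 and 19 without knockout fish/fungal replicate 1, 2 and 3. Called in both genotypes were 35 genes, 34 lower and 1 higher (Mt1), which is 38.9% of the control calls and 60.3% of the knockout calls. Both comparisons take a gene's SE from the same pooled spread, so the call lists are not independent although the arrays differ. With a fit of only the groups compared, the knockouts gave 12 calls in place of 58. Of the 90 control genes 88 had the same sign in knockouts, where 64.6% of all genes tested had the same sign in both. The change was smaller in knockouts for 79 of the 90, although the 90 were chosen for a large change in controls, and the median of the 78 lower genes was -0.81 in knockouts and -1.02 in controls. Fads1 changed by -3.37 ± 0.26 in knockouts (adjusted p = 3.8e-06) and Apoa4 by -2.60 ± 0.28, both close to their control values. Fabp5 changed by -1.52 in knockouts (adjusted p = 0.15) against -2.87 in controls. In cholesterol synthesis 8 of 18 enzymes were lower in knockouts, with a median of -0.98.

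**Figure D5:**
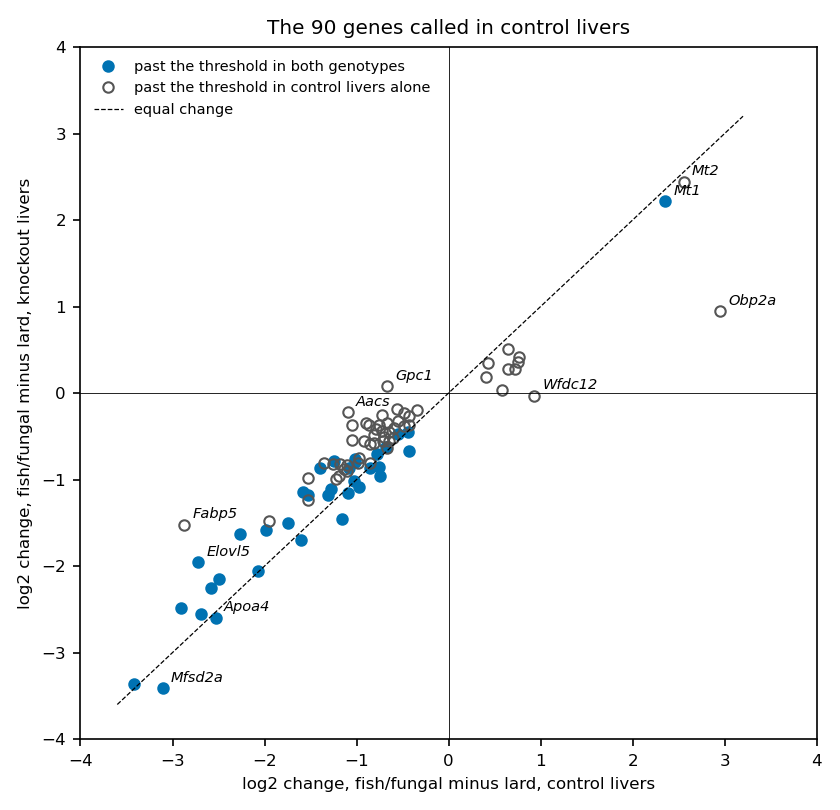
Log2 change of fish/fungal minus lard for the 90 genes called in control livers, in control livers (horizontal axis) and in reductase knockout livers (vertical axis). Filled points passed in both genotypes, open points in control livers alone, and the dashed line marks equal change. Of the 90 points 88 have the same sign on both axes. Obp2a, Fabp5, Wfdc12, Aacs, Elovl5 and Gpc1 are among those that stand away from the line.

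No gene's oil effect differed between the genotypes by the test of the difference itself (smallest adjusted p = 0.74), with 305 genes at an unadjusted p under 0.05 (2.42%), 16 of them among the 90. Without fish/fungal control replicate 1 or 2 the count was 1. Gpc1, the heparan sulphate proteoglycan glypican 1, had the smallest p among the 90. It had 6.23, 6.29 and 6.51 in the fish/fungal pools against 7.10, 6.92 and 7.02 in the lard pools of controls (-0.67 ± 0.11), and in knockouts 6.52, 6.44 and 6.58 in the fish/fungal pools against 6.52, 6.50 and 6.27 in the lard pools (0.08 ± 0.11). The control change minus the knockout change was -0.75 ± 0.15 (unadjusted p = 0.00012, adjusted p = 0.74). Obp2a had 5.72, 5.71 and 5.85 in fish/fungal-fed knockouts against 4.78, 4.72 and 4.92 in lard-fed knockouts (0.95 ± 0.34), a difference from the control change of 2.00 ± 0.49 (unadjusted p = 0.00074, adjusted p = 1.0). Its pools did not overlap between diets in either genotype. In lard-fed knockouts Obp2a lay below the array medians, so the knockout fold can be a lower bound. The lard-fed controls lay near the array medians too, so the control change can also be a lower bound. The fitted 2.00 is therefore neither an upper nor a lower limit of the difference between the genotypes. Wfdc12, Rpp40 and Elovl2 had differences of 0.96 ± 0.25, 0.55 ± 0.14 and -0.46 ± 0.15 (adjusted p = 1.0 each). Over all genes the smallest p was that of Ccn1, a matricellular protein, at 0.73 ± 0.18 in controls and -0.57 ± 0.18 in knockouts (adjusted p of the difference 0.74). Sprr1a, a cornified envelope protein, was at 0.35 ± 0.30 in controls and -1.49 ± 0.30 in knockouts (adjusted p of the difference 1.0).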

How the data were processed

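Total RNA of single livers was pooled in threes and hybridised to 18 Affymetrix mouse genome arrays, per the labels' protocols. Per the submitters' processing notes the deposited log2 values come from RMA, whose version is not given in the sources used here. The log2 scale was read from the values, which run from 2.409 to 14.89. Nothing was normalized again. Of 45101 probe sets 34945 had 1 gene symbol, and 932 with several, 9160 without a listing and 64 array controls were left out. Symbols were updated through the RefSeq table of GRCm38.p6 (34741 probe sets matched). A gene was read from its probe set of highest mean and tested if above the array median in at least 3 of 18 arrays (12578 of 18193 genes). limma 3.58.1 in R 4.3.3 fitted 6 group means to all 18 arrays, with an intensity trend, two-sided tests and Benjamini-Hochberg adjustment over all genes tested (threshold 0.05). Pools numbered alike were not treated as pairs: the correlations of their deviations were 0.0889, 0.104 and 0.115. The pool is the replicate, its spread mixes animals with handling, and 3 pools a group limit the precision. The code was tested on simulated data.

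There were 42 gene lists, 29 of pathways and 13 of cell types. Members and lists were chosen with earlier results of these data known, and no list was tested as a set. The naming rule took up to 15 of the largest rises (12 were called) and falls without overlap. Of each list it took up to 6 called genes, or up to 2 of smallest p where none passed. It also took 5 genes of smallest interaction p among the 90 and 3 among all genes. The text leaves out some genes that the rule took, mostly from lists without a call. Any other gene was picked with its values known. The alternatives tried were a second quantile normalization, centring, other filters, other choices of probe set, no trend, array weights, a fit of only the groups compared, a replicate block and the omission of each array.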

Additional observations from a re-analysis of the deposited data

How the results depend on the processing

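Over the 10 alternatives that kept all arrays, fish/fungal oil against lard in controls gave 70 calls (replicate block) to 122 (array weights), against 90 as reported, and the lower genes stayed within 1.5 times of 78. The 12 higher genes became 25 with array weights and 19 with only the groups compared. Leaving out a pool gave 41 to 67 calls, 38 to 61 lower and 3 to 13 higher. With a replicate block 68 of the 90 genes passed, with only the groups compared 71, and with a gene's probe sets averaged 76. Every control pool correlated best with the pool of its own number in the other diet, a hint from the data only. In knockouts the 58 calls became 30 with array weights and 12 with only the groups compared, and 12 to 116 when a pool was left out. Fish/fungal against canola gave 33 calls, 50 when centred, 50 with array weights, and 19 to 25 without a pool. Canola against lard gave 0, and 2 with only the groups compared. The interaction gave 0, and 1 without fish/fungal control replicate 1 or 2 (0 to 1 over its leave-outs). Among genes without a call, Retn at -0.04 became 0.01 without lard replicate 3 and 0.05 without fish/fungal replicate 3 (-0.10 to 0.05 over the leave-outs), S100a8 at 0.12 became -0.14 with array weights, -0.55 without lard replicate 1 and -0.08 without fish/fungal replicate 2 (-0.55 to 0.71), and Sox9 at 0.08 became 0.00 without fish/fungal replicate 1 (0.00 to 0.23). The causes were not tested. Genes near or below the array median have little signal over background, and changes to or from such levels can be lower bounds. No background level was estimated here.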
